A study of Mus musculus with 143 samples.

Results

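Polycomb repressive complex 2 (PRC2) and the enzymes that oppose it were followed in mouse oocytes that lack the RNA exosome nucleases DIS3, EXOSC10 or both. The set is a list of 10 named genes, and no measured value enters the rule: Ezh1 and Ezh2 (catalytic subunits), Eed and Suz12 (core subunits), Jarid2, Aebp2, Mtf2 and Phf19 (accessory subunits), and Kdm6a and Kdm6b (demethylases). All 10 were found among the 55573 gene IDs of the poly(A) count files and the 55487 of the RiboMinus count files, and all 10 passed the low-count filter of every fit. Poly(A) libraries of single oocytes covered the germinal vesicle stage (GV, nucleus intact; 8 control and 15 Dis3 conditional knockout, cKO), GV oocytes after 3 h of culture (GV3h; 8 and 16) and superovulated metaphase II eggs (MII; 8 and 16). RiboMinus libraries of single oocytes, primed with random hexamers, covered GV oocytes of adults, from control and Dis3 cKO, and oocytes at day 20 after birth (p20; control, Dis3 cKO, Exosc10 cKO and double knockout, dcKO), with 8 libraries in each. H3K27me3 was mapped by CUT&Tag, in which an antibody guides a transposase to the mark, in bulk oocytes of adult GV control, adult GV Dis3 cKO, p20 control and p20 dcKO, with 3 libraries in each. The mutant mice were made with CRISPR/Cas9, per the labels; controls are labelled only as control, and the strain, the adult age and the driver of the deletion are not given in the sources used here.

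PRC2 places methyl groups on lysine 27 of histone H3 (H3K27me3), a mark of silent chromatin. EZH1 and EZH2 are alternative catalytic subunits, and the enzyme is active only when bound to EED, which reads the mark, and SUZ12, the scaffold. MTF2 and PHF19 mark one form of the complex and JARID2 and AEBP2 another. KDM6A (UTX) and KDM6B (JMJD3) remove the mark. In growing mouse oocytes H3K27me3 is laid down over broad domains, and some of it is inherited by the embryo, where it silences the maternal copy of genes such as Gab1, Sfmbt2 and Jade1. The data address whether loss of the exosome nucleases goes with a change in the RNA for this enzyme and in the extent of its mark.

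The stretch just upstream of the start of the 4 genes of the catalytic core is shown because these genes lie in the same complex but did not move together, and because the H3K27me3 lists were read at these places. Each line gives 250 bases from RefSeq on mm10/GRCm38 (table GRCm38.p6), 5′ to 3′ on the gene's strand, with each CG pair in capitals. Ezh2 is chr6:47595031-47595280 on the minus strand, Ezh1 chr11:101226464-101226713 minus, Eed chr7:89980977-89981226 minus and Suz12 chr11:79992856-79993105 plus.
Ezh2: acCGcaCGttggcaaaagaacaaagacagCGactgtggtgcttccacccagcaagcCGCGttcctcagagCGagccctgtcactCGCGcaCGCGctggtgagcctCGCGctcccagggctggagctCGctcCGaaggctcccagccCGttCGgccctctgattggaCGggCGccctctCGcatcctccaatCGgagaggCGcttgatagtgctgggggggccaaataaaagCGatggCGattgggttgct
Ezh1: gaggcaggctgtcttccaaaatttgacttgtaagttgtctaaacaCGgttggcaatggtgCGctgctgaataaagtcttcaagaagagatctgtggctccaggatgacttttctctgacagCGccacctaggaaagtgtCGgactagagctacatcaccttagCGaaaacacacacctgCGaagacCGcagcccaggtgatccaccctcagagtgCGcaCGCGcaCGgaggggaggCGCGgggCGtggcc
Eed: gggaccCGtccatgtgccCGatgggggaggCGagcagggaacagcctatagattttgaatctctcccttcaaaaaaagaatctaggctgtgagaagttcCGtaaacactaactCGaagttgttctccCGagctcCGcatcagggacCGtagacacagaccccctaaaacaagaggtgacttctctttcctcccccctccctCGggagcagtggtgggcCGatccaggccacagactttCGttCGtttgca
Suz12: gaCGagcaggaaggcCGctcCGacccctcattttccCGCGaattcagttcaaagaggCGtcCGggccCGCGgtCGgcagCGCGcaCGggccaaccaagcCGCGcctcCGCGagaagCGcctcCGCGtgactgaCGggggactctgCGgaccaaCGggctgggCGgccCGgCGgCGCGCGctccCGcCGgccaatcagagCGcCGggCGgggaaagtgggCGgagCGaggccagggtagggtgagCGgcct

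These 4 windows hold 23, 14, 12 and 37 CG pairs, in the order shown, against a median of 6 over 32841 promoter windows of the same length. As many or fewer pairs were found in 88.0%, 72.7%, 68.5% and 98.1% of those windows. Of the 10 genes, 9 had a promoter entry, and Kdm6b (chr11:69398508-69420367) had none.

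Gene counts ran from 4843964 to 15412200 in poly(A) libraries and from 8492102 to 35429028 in RiboMinus libraries, and the lowest count of any member in any library was 29 (Phf19). Dis3 RNA was lower in every Dis3-targeted group (log2 fold change between -2.18 and -3.63), and Exosc10 RNA in Exosc10 cKO (-5.22) and dcKO (-4.01). All 10 oocyte marker genes reached 1 CPM in each group, and 12 granulosa and cumulus markers summed to 44.1 to 241 CPM, with Ptx3 at 0 outside p20 Dis3 cKO. One MII Dis3 cKO library, oocyte 15, stood apart, with 14.4 gene counts per count of the synthetic ERCC RNAs added to each lysate, against 48.6 to 81.0 in the other 15. Levels are CPM, gene counts as a share of the library's total after TMM scaling (per 1e+06 counts), and are compared between libraries, not between genes, since transcript lengths were not used. Tests were made with edgeR's quasi-likelihood F test over all genes, with Benjamini-Hochberg adjustment and a call at 0.05. The labels do not say that libraries of a group came from separate animals, so p-values measure the spread between libraries.

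Ezh2 had the most negative difference of the 10 members after loss of Dis3 in GV3h oocytes and MII eggs, though not at GV. In GV oocytes it stood at 359, 420 and 562 CPM (lowest, median, highest) in controls and at 308, 375 and 432 in Dis3 cKO. These ranges overlapped, and the difference of -0.21 on the log2 scale (SE 0.10, edgeR adjusted p = 0.145) was not called. After 3 h of culture controls stood at 417, 458 and 520 CPM and Dis3 cKO at 228, 305 and 432. Here 15 of 16 knockout libraries lay under every control, and Ezh2 fell by 0.57 on the log2 scale (SE 0.10, edgeR adjusted p = 4.67e-06). In MII eggs controls stood at 938, 1057 and 1501 CPM and Dis3 cKO at 373, 495 and 703. All 16 knockout eggs lay under all 8 control eggs, and Ezh2 fell by 1.15 (SE 0.10, edgeR adjusted p = 1.30e-15). The difference between the MII and the GV effect was itself called, at -0.94 (SE 0.15, edgeR adjusted p = 3.21e-06); 2 of 10 members were called in that test, both lower, against 13.2% of all genes in either direction and 3.88% lower. Between GV3h and GV 0 members differed in their effect by edgeR (2.04% of all genes), with 2 at an unadjusted p under 0.05 and 0 by DESeq2. On ERCC scaling the MII fall remained (-0.87), the GV fall passed the threshold (-0.46, edgeR adjusted p = 0.0202), and the difference between stages did not pass it (-0.41, edgeR adjusted p = 0.135). In that stage test ERCC scaling instead called 3 members, all in the higher direction (Jarid2 at 1.09, Phf19 at 1.13 and Ezh1 at 0.73), where 29.4% of all genes were called higher and 0.696% lower and the median of all genes was 0.68. The summed granulosa and cumulus markers were also higher in control MII eggs (104 to 181 CPM) than in Dis3 cKO eggs (58.6 to 94.3 CPM), with 6 and 3 of the 12 at a mean of 1 CPM or more and Foxl2, Amhr2, Inha and Ptx3 at 0 in the knockout eggs; their part in this result was not tested.

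Ezh1, the alternative catalytic subunit, went the other way. GV controls stood at 66.8, 74.2 and 94.2 CPM and Dis3 cKO at 54.1, 84.3 and 115, with overlap and no call (log2 fold change 0.17, SE 0.11). At GV3h, 13 of 16 Dis3 cKO libraries (75.3, 98.1 and 115 CPM) lay above all controls (57.9, 78.6 and 89.1 CPM), and Ezh1 rose by 0.39 on the log2 scale (SE 0.11, edgeR adjusted p = 0.00274). In MII eggs 11 of 16 (74.9, 114 and 185 CPM) lay above all controls (71.05, 94.1 and 105 CPM), and it rose by 0.34 (SE 0.11, edgeR adjusted p = 0.00855). The GV3h call was not kept on ERCC scaling (0.35, edgeR adjusted p = 0.167), nor the MII call in knockout eggs 1 to 8 alone (0.18, edgeR adjusted p = 0.229). With the compared groups alone the MII call was also lost, at a difference about as large (0.31, edgeR adjusted p = 0.0784). As a ratio within a library, Ezh2 counts per Ezh1 count were 12.2 ± 2.39 (SD, n = 8) in control MII eggs and 4.45 ± 1.18 (n = 16) in Dis3 cKO eggs. The same ratio was 5.77 ± 1.13 and 4.53 ± 0.943 at GV, and 6.44 ± 1.21 and 3.28 ± 0.776 at GV3h, so the control ratio was highest in MII eggs and no such rise stood in the knockout means.

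**Figure D1:**
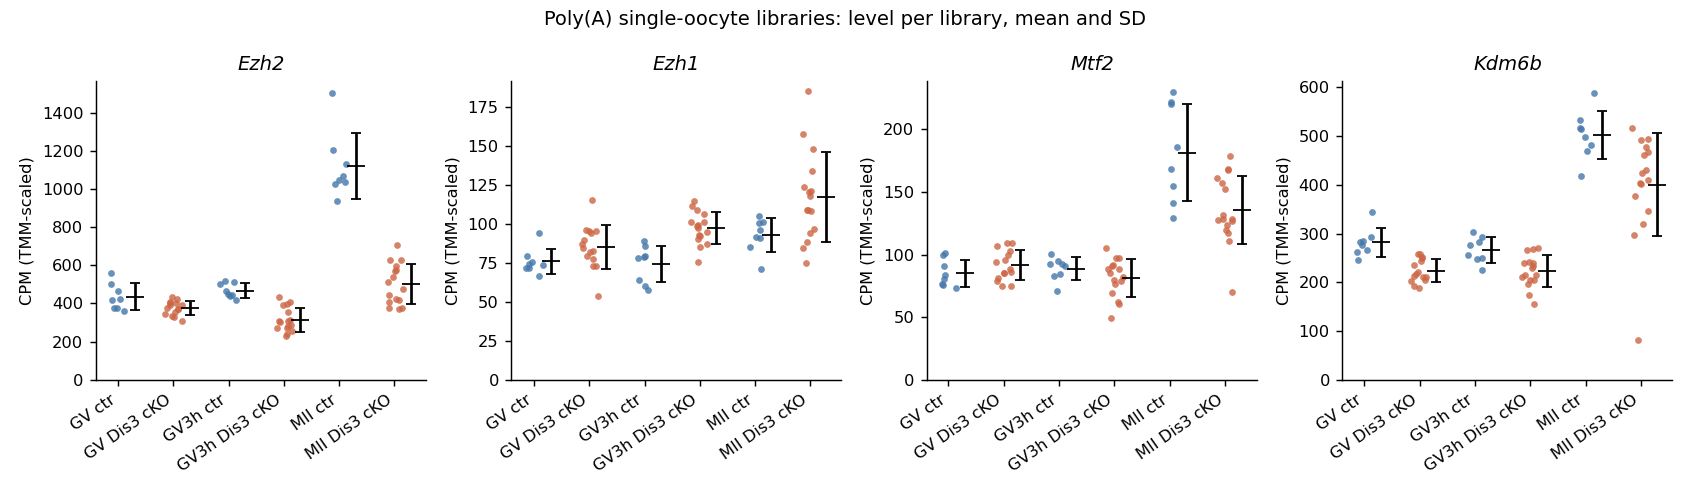
Level in CPM of Ezh2, Ezh1, Mtf2 and Kdm6b in each poly(A) single-oocyte library, by stage and genotype. Points are libraries, and the bar beside them is the mean with its SD; the 16 MII Dis3 cKO eggs lie below the 8 control eggs for Ezh2, while Ezh1 runs to 185 CPM in Dis3 cKO against 105 CPM in controls.

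The core subunits Eed and Suz12 were not called for Dis3 loss at any poly(A) stage in the fit of all groups, but were in some alternatives. Eed, the reader of the mark, stood at 147, 205 and 252 CPM in GV controls and 126, 246 and 286 in Dis3 cKO, and at 243, 276 and 334 and 174, 240 and 412 in MII eggs. Its log2 differences were 0.24 (SE 0.13) at GV, -0.06 (SE 0.12) at GV3h and -0.17 (SE 0.12) in MII eggs, and all ranges overlapped. At GV3h the value of -0.06 pools knockout libraries that stood apart, and controls carry numbers 1 to 8 only. The control mean was 189 CPM. Knockout numbers 1 to 8 lay at 121 to 177 CPM (mean 149). Numbers 9 to 16 lay at 183 to 239 CPM (mean 215), the lowest also below the control mean. These sets did not overlap in 1 of the 30 combinations of member and poly(A) stage, this one, and the labels do not say what the numbers mark. With replicates 1 to 8 alone, Eed was called at GV3h, at -0.34 (edgeR adjusted p = 0.0211). Suz12, the scaffold, had differences of -0.11 (SE 0.16), -0.33 (SE 0.15) and -0.33 (SE 0.15). Suz12 was among the least even members within a group, from 136 to 536 CPM in GV Dis3 cKO against 312 to 492 in GV controls. In MII eggs it was close to the threshold (edgeR adjusted p = 0.0707) and passed it with DESeq2 (adjusted p = 0.0474), with the compared groups alone, and without GV control 1 or oocyte 15. On ERCC scaling Suz12 was not called in MII eggs, at a difference of -0.05 (edgeR adjusted p = 0.832). At GV3h (edgeR adjusted p = 0.0757) it passed with the compared groups alone (0.0250) and without GV control 1 (0.0377).

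Of the accessory subunits, Jarid2 and Mtf2 were each called at 1 stage. Jarid2, which helps to recruit the complex, stood at 158, 286 and 350 CPM in GV controls and 116, 199 and 275 in Dis3 cKO. In 14 of 15 knockout libraries it lay below the control mean, and it fell by 0.41 (SE 0.12, edgeR adjusted p = 0.00621); at GV3h and MII its differences were 0.09 and 0.04. Mtf2, a subunit that binds CpG-rich DNA, stood at 129, 177 and 230 CPM in control MII eggs and 70.01, 129 and 179 in Dis3 cKO. All 16 knockout eggs lay below the control mean and 9 below all controls, a fall of 0.42 (SE 0.11, edgeR adjusted p = 0.00136). Mtf2 had a difference of 0.10 at GV, and the MII effect differed from the GV effect by -0.52 (SE 0.16, edgeR adjusted p = 0.0188). On ERCC scaling the MII difference of Mtf2 was -0.02 and the difference between stages 0.16, with neither called. Aebp2 (differences of 0.15, -0.04 and -0.11 at GV, GV3h and MII) and Phf19 (-0.33, -0.23 and 0.13) were not called, and Phf19 was low in all poly(A) libraries, from 3.07 to 49.1 CPM.

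Both demethylases had negative differences at each stage on TMM scaling. Kdm6b stood at 245, 279 and 344 CPM in GV controls and 189, 216 and 259 in Dis3 cKO. All 15 knockout oocytes lay below the control mean and 11 below all controls, a fall of 0.33 (SE 0.13, edgeR adjusted p = 0.0472) that was not called without GV control 1, the highest control (-0.30, edgeR adjusted p = 0.0980). In MII eggs Kdm6b stood at 418, 506 and 587 CPM in controls and 81.7, 418 and 516 in Dis3 cKO, a fall of 0.33 (SE 0.12, edgeR adjusted p = 0.0275) whose sign turned on ERCC scaling, to a difference of 0.08 that was not called. The call was also lost with the compared groups alone (edgeR adjusted p = 0.133) and with replicates 1 to 8 alone (0.0710). The lowest value, 81.7 CPM, was that of oocyte 15. At GV3h Kdm6b stood at 224, 266 and 302 CPM in controls and 155, 222 and 270 in Dis3 cKO, with 13 of 16 below the control mean and 8 below all controls. That difference of -0.26 (SE 0.12, edgeR adjusted p = 0.0936) was not called, and was called in 5 alternatives, among them the compared groups alone (-0.27, edgeR adjusted p = 0.00834) and without GV control 1 (-0.31, edgeR adjusted p = 0.0387). Kdm6a, the X-linked demethylase, stood at 324, 374 and 402 CPM in GV3h controls and 141, 259 and 350 in Dis3 cKO. There 14 of 16 knockout libraries lay under all controls, and it fell by 0.50 (SE 0.16, edgeR adjusted p = 0.00998). In GV Dis3 cKO it was spread from 74.1 to 448 CPM around a median of 335, against 297 to 428 in controls. It was not called (-0.31, SE 0.16), but with oocytes 1 to 8 alone it was called at -0.69 (edgeR adjusted p = 0.00239). Knockout numbers 1 to 8 lay at 74.1 to 341 CPM (mean 229). Numbers 10 to 16 lay at 335 to 448 CPM (mean 380), against a control mean of 371, so the negative GV difference stood in numbers 1 to 8 only. In MII eggs the difference of -0.37 (SE 0.16, edgeR adjusted p = 0.0608) was not called; DESeq2 (-0.41, adjusted p = 0.0343), the compared groups alone (edgeR adjusted p = 0.0209) and the fit without GV control 1 (edgeR adjusted p = 0.0437) called it, and ERCC scaling gave 0.01.

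Counted together, 2 of 10 members were called at GV (both lower), where 21.9% of all 17389 genes tested were called and 8.33% were called lower. At GV3h 3 were called (Ezh1 higher, Ezh2 and Kdm6a lower) against 38.6% of all genes, and in MII eggs 4 (Ezh1 higher, Ezh2, Mtf2 and Kdm6b lower) against 42.1%. These shares are near the background, so the count itself is not a result about the set. The median log2 difference of the 10 was -0.16, -0.18 and -0.25 at the 3 stages, where that of all genes was 0.04, 0.07 and 0.16. ERCC scaling moved the median of all genes to -0.23 at GV, 0.04 at GV3h and 0.52 in MII eggs; there 2 members were called in MII eggs, Ezh2 lower and Ezh1 higher.

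**Figure D2:**
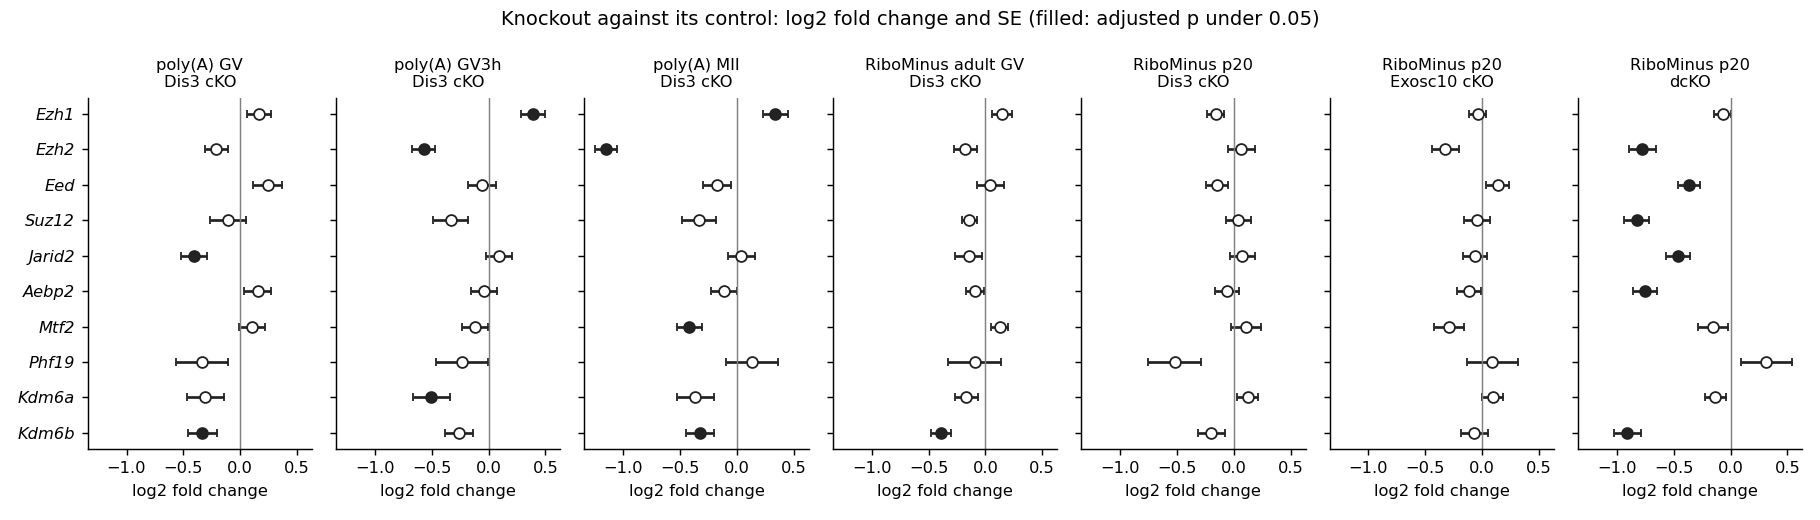
Log2 fold change and SE of the 10 members in the 7 comparisons of a knockout with its control, from edgeR. Filled points are called; Ezh2 reaches -1.15 in MII eggs, and 6 members are filled and negative in p20 dcKO while Ezh1 stays near 0.

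Maturation of control oocytes changed the relative level of most members. From GV to MII, 8 of 10 were called higher, where 58.5% of all genes were called and 22.7% were called higher. The median of the 10 was 0.64 and that of all genes -0.27. Ezh2 rose by 1.37 (SE 0.12), Mtf2 by 1.09 (SE 0.13), Aebp2 by 0.88 (SE 0.13), Kdm6b by 0.83 (SE 0.15) and Kdm6a by 0.76 (SE 0.19). The 8 GV and 8 MII controls did not overlap for any of these. The share of all genes without overlap is not given here, so this says nothing about the set. Eed (0.52), Suz12 (0.44) and Ezh1 (0.29) were called as well, while Phf19 (0.46) and Jarid2 (-0.02) were not. These are shares of the poly(A) pool: on ERCC scaling the median of all genes was -2.12, and the 8 rises became falls between -0.48 (Ezh2) and -1.59 (Ezh1), each smaller than that median. In Dis3 cKO, 8 members were called higher from GV to MII (63.3% of all genes called, 24.8% higher), with Ezh2 at 0.42 (SE 0.09), and 0 of 10 kept that direction on ERCC scaling. From GV to GV3h, 0 members were called in controls with edgeR (2.71% of all genes), 2 had an unadjusted p under 0.05, and DESeq2 called 0. Those were Phf19 (-0.65, SE 0.27), in which all 8 GV3h controls lay below all 8 GV controls, and Jarid2 (-0.43, SE 0.13); each was called with the compared groups alone (edgeR adjusted p = 0.00535 and 0.0172), and Jarid2 also without GV control 1 (-0.49) and without oocyte 15. In Dis3 cKO 5 were called lower (17.3% of all genes called, 9.88% lower), namely Aebp2, Eed, Ezh2, Phf19 and Suz12. None of these 5 was called on ERCC scaling, where Ezh1 (0.61) and Jarid2 (0.51) were called higher. On that scaling 36.1% of all genes were called higher, and the median of all genes was 0.47.

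In adult GV oocytes without selection for poly(A) tails, Kdm6b was the 1 member called of 10, where 28.1% of 15334 genes were called and 12.4% were called lower. Controls stood at 618, 650 and 759 CPM and Dis3 cKO at 420, 489 and 609. The 8 knockout libraries lay below all 8 controls, and Kdm6b fell by 0.39 (SE 0.09, edgeR adjusted p = 0.00303). Titles carry a second tag, AM1713 or AM1757 for the knockout and AM1758 or AM1759 for the control, which the labels do not describe. With counts summed per tag, 2 values a genotype, the Kdm6b difference was -0.40 (edgeR adjusted p = 0.155), as large as over single libraries; in that fit 0 of 15334 genes were called, so every call was lost there. Ezh2 differed between tags: it stood at 344 ± 68.4 CPM (SD, n = 4) in AM1713 and 476 ± 43.6 in AM1757, against 480 ± 40.5 and 459 ± 26.0 in the controls. Eed ran from 136 to 160 CPM in AM1713 and from 189 to 250 in AM1757, on either side of the control mean of 185, and Kdm6a stood at 481 ± 76.4 and 686 ± 55.8 against 680 ± 48.2 and 650 ± 44.3. Over all 8 Ezh2 was not called (-0.18, SE 0.10), and Ezh1 (0.15), Eed (0.04), Suz12 (-0.14), Jarid2 (-0.15), Aebp2 (-0.09), Mtf2 (0.13), Phf19 (-0.10) and Kdm6a (-0.17) were not called either. On ERCC scaling 8 members were called lower, where 40.1% of all genes were and the median of all genes was -0.52.

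At p20, 6 members were called lower when both nucleases were gone, and none was called with either alone. The share of all genes called differed likewise, at 53.7% in dcKO against 7.37% and 7.45% in the single knockouts. The 3 knockouts share the same 8 controls. In Dis3 cKO 0 of 10 were called with edgeR (7.37% of 15882 genes), and in Exosc10 cKO 0 of 10 (7.45%), with 2 at an unadjusted p under 0.05 in each and 0 by DESeq2. These counts are near the background and say little of the members. In Dis3 cKO the differences were -0.52 for Phf19 (SE 0.23, 5 of 8 libraries below all controls), -0.20 for Kdm6b, -0.16 for Ezh1 (SE 0.07, 7 of 8 below all controls), -0.15 for Eed, -0.06 for Aebp2, 0.04 for Suz12, 0.07 for Ezh2, 0.08 for Jarid2, 0.11 for Mtf2 and 0.12 for Kdm6a. In Exosc10 cKO they were -0.32 for Ezh2, -0.29 for Mtf2 (SE 0.13, 6 of 8 below all controls), -0.11 for Aebp2, -0.07 for Kdm6b, -0.06 for Jarid2, -0.05 for Suz12, -0.04 for Ezh1, 0.09 for Kdm6a, 0.09 for Phf19 and 0.14 for Eed. In dcKO 6 of 10 were called by edgeR, all lower, where 53.7% of all genes were called and 27.1% were called lower. The number called is near the share called in either direction, so it is not itself a result about the set. The median of the 10 was -0.42 and that of all genes -0.01. Overlap between dcKO and control libraries is given below for single members. The share of all genes without overlap is not given here, so lack of overlap says nothing about the set. The summed granulosa markers overlapped between p20 controls (132 to 178 CPM) and dcKO (117 to 187 CPM), with 9 and 7 of 12 at a mean of 1 CPM or more and Ptx3 at 0 in both. The highest of these markers was Nr5a2, at a mean of 81.4 CPM in controls and 119 CPM in dcKO. Without Nr5a2 the highest sum of any library was 72.6 CPM in controls and 44.3 CPM in dcKO. The part of these markers in the dcKO result was not tested.

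Ezh2 stood at 437, 478 and 537 CPM in p20 controls and at 164, 287 and 377 in dcKO, with no overlap. It fell by 0.78 (SE 0.12, edgeR adjusted p = 1.87e-06). In Dis3 cKO it stood at 405, 500 and 595 CPM, and in Exosc10 cKO at 334, 374 and 452, where 6 of 8 libraries lay below all controls and the difference of -0.32 (SE 0.12, edgeR adjusted p = 0.0966) was not called; in a fit of these groups alone it was called (-0.31, edgeR adjusted p = 0.00983). Ezh1 did not pass in dcKO, at 85.2, 91.5 and 96.0 CPM in controls and 69.2, 85.3 and 101 in dcKO (-0.07, SE 0.07). Ezh2 counts per Ezh1 count were 5.24 ± 0.402 (SD, n = 8) in controls, 6.17 ± 1.07 in Dis3 cKO, 4.36 ± 0.881 in Exosc10 cKO and 3.19 ± 0.759 in dcKO.

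Both core subunits fell in dcKO. Suz12 stood at 649, 753 and 1000 CPM in controls and 324, 441 and 571 in dcKO, without overlap, and fell by 0.83 (SE 0.11, edgeR adjusted p = 2.18e-07). Eed stood at 108, 132 and 150 CPM in controls and 73.3, 104 and 118 in dcKO, with 4 of 8 below all controls, and fell by 0.37 (SE 0.10, edgeR adjusted p = 0.00220). The Eed call was lost when counts were summed per title tag (-0.35, edgeR adjusted p = 0.0656); the other 5 kept theirs.

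Among the accessory subunits the JARID2 and AEBP2 pair fell and the MTF2 and PHF19 pair was not called. Aebp2 stood at 79.3, 88.0 and 98.7 CPM in controls and 40.7, 51.9 and 66.8 in dcKO, a fall of 0.75 (SE 0.11, edgeR adjusted p = 3.47e-07) without overlap. Jarid2 stood at 366, 379 and 444 CPM in controls and 196, 273 and 364 in dcKO, a fall of 0.46 (SE 0.11, edgeR adjusted p = 0.000449) without overlap, not called on ERCC scaling (-0.49, edgeR adjusted p = 0.0777). Mtf2 had a difference of -0.16 (SE 0.13) and Phf19 of 0.32 (SE 0.23); whether the pairs differ from each other was not tested. Of the demethylases, Kdm6b stood at 495, 613 and 693 CPM in controls and 204, 318 and 476 in dcKO, without overlap, and fell by 0.91 (SE 0.12, edgeR adjusted p = 1.13e-07). Kdm6a had a difference of -0.13 (SE 0.09) and was not called. Kdm6a counts per Kdm6b count were 0.835 ± 0.0773 in controls and 1.49 ± 0.363 in dcKO.

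The fall was present for both title tag numbers of the p20 libraries but not of one size. Between libraries of tag 1, the log2 ratio of mean CPM was -1.15 for Ezh2, -1.06 for Suz12, -1.31 for Kdm6b, -0.83 for Aebp2, -0.73 for Jarid2 and -0.52 for Eed. Between those of tag 2 it was -0.50, -0.65, -0.60, -0.70, -0.27 and -0.23 in the same order. Whether the tag is a mouse, a day or a plate, and whether the same number links control and dcKO libraries, is not given in the sources used here.

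**Figure D3:**
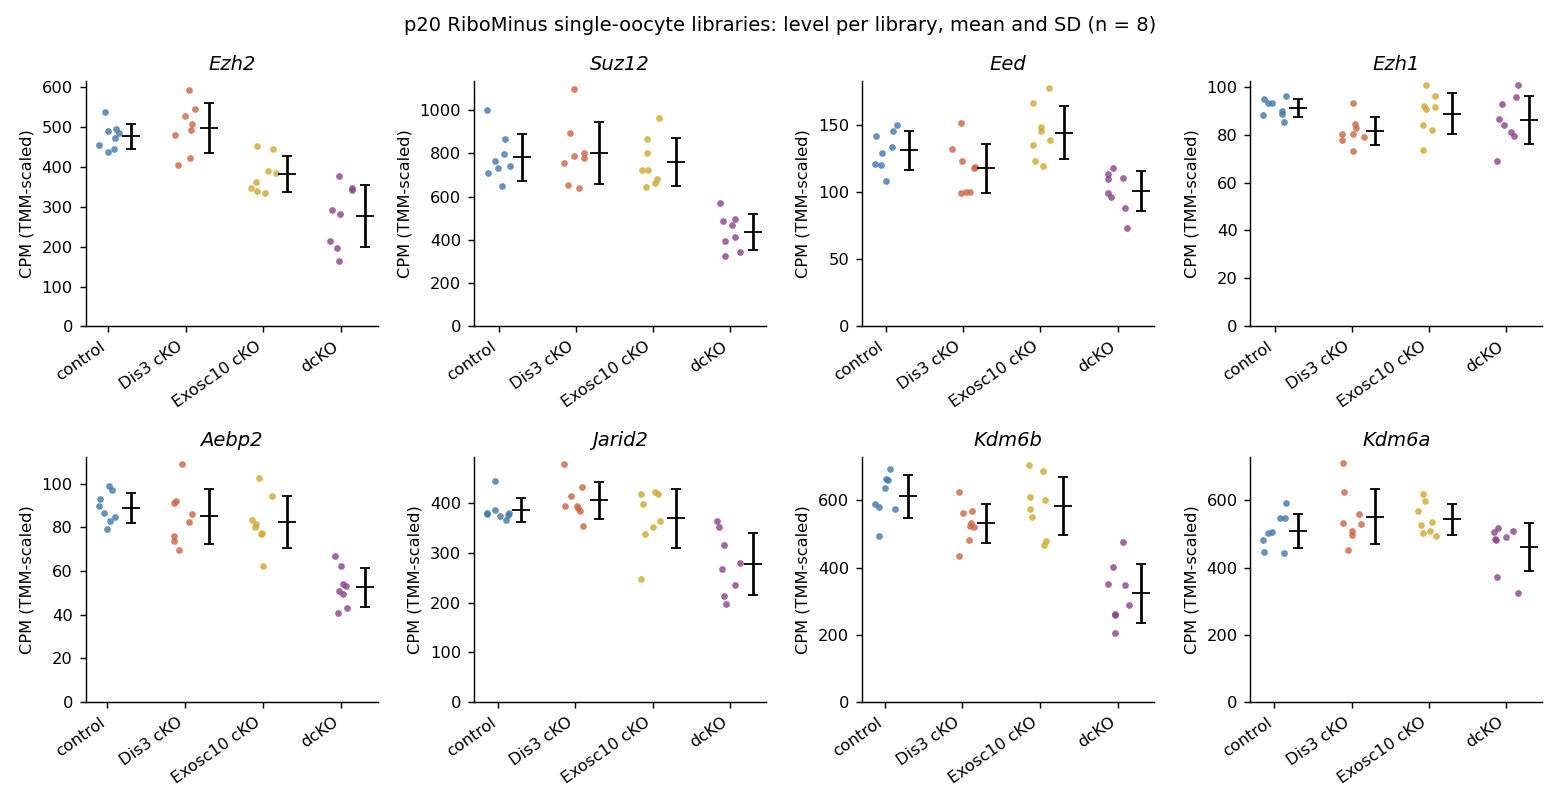
Level in CPM of 8 members in each p20 RiboMinus library (n = 8 per group), with mean and SD. The dcKO points lie below all control points for Ezh2, Suz12, Aebp2, Jarid2 and Kdm6b, overlap them for Eed and Kdm6a, and span 69.2 to 101 CPM for Ezh1. The share of all genes without overlap is not given here.

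Set directly against the single knockouts, dcKO differed in 7 members each time. Against Dis3 cKO (51.5% of all genes called), Suz12 (-0.87), Ezh2 (-0.84), Kdm6b (-0.71), Aebp2 (-0.69), Jarid2 (-0.54) and Kdm6a (-0.26) were lower and Phf19 (0.84, SE 0.23) was higher, with Eed (-0.22), Mtf2 (-0.27) and Ezh1 (0.09) not called. Against Exosc10 cKO (49.2% of all genes called, 25% lower), Kdm6b (-0.84), Suz12 (-0.78), Aebp2 (-0.64), Eed (-0.50), Ezh2 (-0.45), Jarid2 (-0.40) and Kdm6a (-0.23) were lower, with Ezh1 (-0.03), Mtf2 (0.13) and Phf19 (0.23) not called. On ERCC scaling Ezh2, Suz12 and Phf19 stayed called against Dis3 cKO, and Aebp2, Eed, Kdm6b and Suz12 against Exosc10 cKO. With counts summed per tag, the calls of Ezh2 (-0.44, edgeR adjusted p = 0.0940), Jarid2 (-0.39, 0.0797) and Kdm6a (-0.21, 0.189) against Exosc10 cKO were lost, and that of Kdm6a against Dis3 cKO (-0.24, 0.131), at differences close to those above.

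Between ages, 2 members were called in control RiboMinus libraries, where 19.1% of 17267 genes were called and 8.69% were called higher. The number called is near the share called in either direction, so it is not itself a result about the set. Eed was higher in adult GV oocytes (153 to 212 CPM) than at p20 (108 to 150 CPM), by 0.50 (SE 0.11, edgeR adjusted p = 0.00127). Kdm6a was higher too (594 to 722 against 443 to 592 CPM), by 0.39 (SE 0.10, edgeR adjusted p = 0.00467). Groups did not overlap for either gene, and the share of all genes without overlap is not given here. Both calls were lost when counts were summed per tag, where 1.78% of all genes were called. The differences of Eed and Kdm6a there were 0.49 and 0.38 (edgeR adjusted p = 0.167 and 0.192). On ERCC scaling both were lower in adults (-1.20 and -1.30), where the median of all genes was -1.69. The effect of Dis3 loss did not differ between adult and p20 oocytes in any of the 10 by edgeR (9.32% of all genes), with 2 at an unadjusted p under 0.05 and 1, Ezh1, called by DESeq2.

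Other genes of the pathway were read from a list of 10. Uty was not tested and Epop was tested in RiboMinus libraries only. Crebbp, which acetylates the same lysine, fell in MII Dis3 cKO eggs by 0.46 (SE 0.06), at GV3h by 0.30, at GV by 0.21, in adult RiboMinus libraries by 0.27 and in p20 dcKO by 0.31, each called by edgeR. The counts called, each beside the share of all genes, were 2 of 8 at GV (Lcor higher; 21.9%), 1 of 8 at GV3h (38.6%) and 2 of 8 in MII eggs (Phf1 higher, 0.35; 42.1%). In RiboMinus libraries they were 4 of 9 in adults (Crebbp, Ep300, Lcor and Phf1, all lower; 28.1%), 0 of 9 in p20 Dis3 cKO (7.37%) and 1 of 9 in Exosc10 cKO (Ezhip lower, -0.49; 7.45%). In p20 dcKO they were 6 of 9 (53.7%): Lcorl (0.86) and Ep300 (0.57) rose, and Lcor (-0.36), Crebbp (-0.31), Rbbp4 (-0.27) and Rbbp7 (-0.23) fell. Rbbp4 and Rbbp7 encode histone-binding subunits shared by PRC2 and other complexes.

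The mark itself was read from one peak list per library, made after each library was sampled to the same number of reads. In adult GV oocytes, peaks covered 75.2, 152 and 66.8 Mb in control lists and 195, 153 and 160 Mb in Dis3 cKO lists. The knockout lists lay above all controls, by a mean log2 difference of 0.88, with an exact two-sided permutation p of 0.1, the smallest that 3 against 3 allows. Control list 2 stood apart from the other control lists, and without it the difference was 1.25. At p20, control lists covered 132, 129 and 132 Mb and dcKO lists 165, 193 and 181 Mb, with a log2 difference of 0.45 and again an exact permutation p of 0.1. Counted over peaks at or above the median total signal of all H3K27me3 peaks (1602, in the authors' units), the p20 difference was -0.09 (exact permutation p = 0.7). The authors' mean signal per covered base was lower in knockout lists (2.45 to 3.28) than in control lists (3.65 to 6.90). At 22 Hox gene starts, long known targets of PRC2, a peak was present in 20 to 22 in control lists and 15 to 19 in knockout lists. Over all protein-coding starts the share with a peak overlapped between knockouts and controls, at 25.9% to 29.99% in p20 dcKO against 25.5% to 26.2% in p20 controls, and 23.3% to 26.997% in adult Dis3 cKO against 18.3% to 29.7% in adult controls. The dcKO lists thus had a longer covered length and a lower signal per base. In that genotype RNA fell for Ezh2, Suz12, Eed, Aebp2 and Jarid2, and for the demethylase Kdm6b. RNA and mark were measured in different oocytes, and a link between them was not tested.

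At the members' own genes the mark was nearly absent. A peak within 1 kb of a start was found in 3 of 108 pairs of a member and a list: Phf19 in adult control list 2 and p20 control list 3, and Kdm6a in p20 dcKO list 3. In the same 12 lists, 18.3% to 29.99% of 17491 protein-coding genes had a peak at the start. Over the gene span, Ezh1 (chr11:101191115-101226463), Ezh2 (chr6:47530274-47595270) and Mtf2 (chr5:108065660-108109219) had no peak in 12 of 12 lists, as 44.3% to 66.3% of protein-coding genes had none in a given list. Phf19 (chr2:34893752-34914353) was covered most, up to 13.1% of its span in 1 adult Dis3 cKO list, and no other member exceeded 1.96%. Peaks of RNA polymerase II, taken with an antibody whose titles name S2 and S5 forms, lay over 8 to 10 of the 10 members in each of 9 lists, in which 43.3% to 76.4% of protein-coding genes had none. Their cover of the Kdm6b span was 5.16%, 34.1% and 12.7% in adult control lists, 29.1%, 9.25% and 14.1% in adult Dis3 cKO lists and 33.6%, 38.3% and 36.8% in p20 control lists, with overlap between the adult groups.

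Genes silenced by maternal H3K27me3 in the embryo served as a reading of the mark where it is known to lie. Gab1, Sfmbt2, Slc38a4, Jade1, Smoc1 and Xist were under peaks in all 12 lists. In p20 dcKO lists the covered share of the span was lower than in every p20 control list for Gab1 (26.4% to 31.1% against 45.8% to 51.5%), Jade1 (19.2% to 27.7% against 33.3% to 39.8%), Smoc1 (16.3% to 27.9% against 31.3% to 35.7%) and Sfmbt2 (12.4% to 16.1% against 16.2% to 18.8%). Slc38a4 (20.5% to 22.9% against 18.1% to 22.98%) and Xist (18.04% to 26.4% against 15.5% to 26.6%) overlapped. Over all protein-coding spans pooled, cover was higher in dcKO (6.35% to 7.38%) than in p20 controls (6.08% to 6.16%). These differences were not tested. In adult Dis3 cKO lists the share overlapped with controls for Gab1 (24.9% to 41.0% against 15.2% to 30.2%) and Jade1 (12.6% to 30.5% against 10.4% to 26.1%), and lay above every adult control for the other 4: Smoc1 (23.1% to 40.1% against 13.1% to 19.4%), Sfmbt2 (15.4% to 22.6% against 6.85% to 9.10%), Slc38a4 (14.8% to 25.1% against 7.98% to 12.9%) and Xist (17.9% to 29.3% against 5.91% to 9.26%). Pooled cover of all protein-coding spans was 5.96% to 7.59% in adult Dis3 cKO and 3.26% to 6.60% in adult controls, with overlap. RNA of these genes was low; the floor of 3 counts was 0.152 to 0.187 CPM in p20 control libraries and 0.211 to 0.353 CPM in dcKO. The median was 1.48 CPM in p20 controls and 4.24 CPM in dcKO for Gab1, and 0.131 and 0.911 CPM for Jade1, with overlap between groups. Of the 6 genes, 4 passed the low-count filter in p20 libraries, and edgeR called all of these 4 (Gab1, Sfmbt2, Jade1 and Smoc1) higher in dcKO, where 26.6% of all genes were called higher. A gene this low can pass that filter through the group where it is high, so the count supports nothing, and no fold is given at these levels.

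**Figure D4:**
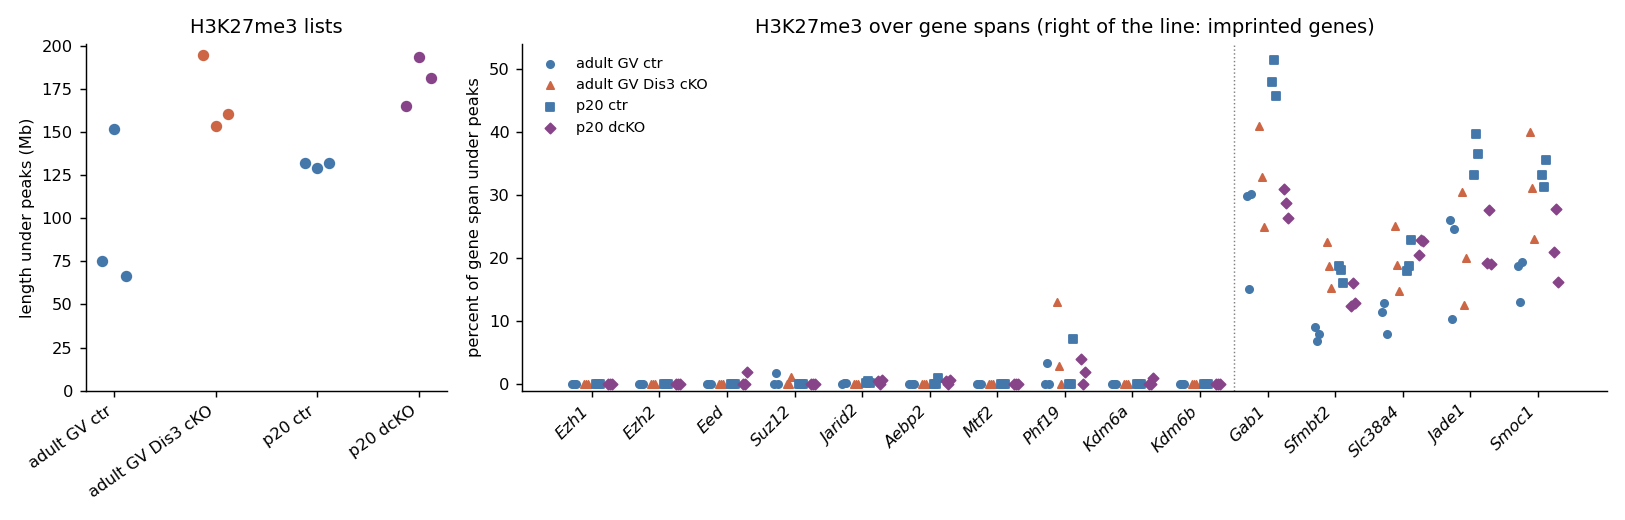
Left, length under H3K27me3 peaks in Mb for each of the 3 lists of a group. Right, percent of the gene span under peaks for the 10 members and 5 imprinted genes, 1 point per list; the members lie at or near 0 except Phf19 (up to 13.1%), and Gab1, Jade1 and Smoc1 lie lower in p20 dcKO than in p20 control lists.

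Over the 12 group means of log2 CPM, centred within each library type, and 15735 genes, the genes most like Ezh2 by Pearson correlation were Fmn2 (0.967), Smc4 (0.965) and Mycbp2 (0.959). Those most like Ezh1 were Tmem150cos (0.953), L3mbtl4 (0.931) and Gls2 (0.926). These are descriptions over 12 group means.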

How the data were processed

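Raw gene counts were deposited by the authors, 1 file per oocyte, with a separate count file for the ERCC RNAs; nothing was normalized. Per the submitters' processing notes, mm10, cutadapt 2.5, STAR 2.7.2a, SAMtools 1.9 and HTSeq 0.9.1 are named, without roles; the strand setting is not given in the sources used here. H3K27me3 and polymerase lists carry the signal per peak as deposited, from SEACR per the submitters' processing notes, 1 list per library, from libraries sampled to equal reads with duplicates kept (design text). The IgG lists were not analysed here, and GV Dis3 cKO has 15 libraries.

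Counts were fitted with edgeR 4.0.16 (R 4.3.3; TMM, filterByExpr, quasi-likelihood F test) in 1 fit for poly(A), 1 for adult RiboMinus, 1 for p20 and 1 for the ages together, with adjustment over all genes tested. CPM of RiboMinus libraries use TMM over all 48 libraries. The fits were tested on simulated data. Alternatives were DESeq2 1.42.0, ERCC scaling, no low-count filter, the compared groups alone, replicate numbers 1 to 8 with and without the number as a block, counts summed per title tag, and single libraries left out. A start was marked when a peak lay within 1 kb. Covered lengths were compared on the log2 scale with an exact permutation test. The members are named whether called or not, and other genes come from lists by name. The members and lists were chosen with earlier results of these data known. No set of same-numbered library pairs had every correlation over 0.1, and numbers served as pairs only in the block alternatives. Whether a title tag links libraries of different groups was not tested.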

Additional observations from a re-analysis of the deposited data

Results flagged for a closer look

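Dixon's test was run 90 times, each on 1 member in 1 group of 4 to 10 libraries, all of which held 8. In 6 of these tests 1 library lay apart from the rest, where chance gives about 1 in 20. Ezh2 stood at 1501 CPM in MII control 1, the highest of 8 control eggs. Ezh1 stood at 94.2 CPM in GV control 2 and at 127 CPM in the adult RiboMinus Dis3 cKO library AM1713_3. Kdm6b stood at 344 CPM in GV control 1, the library without which its GV call was lost. Jarid2 stood at 444 CPM in p20 control 2_3, and Mtf2 at 62.3 CPM, the lowest, in adult RiboMinus control AM1758_1.

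The effect of Dis3 loss differed between MII eggs and GV oocytes for Ezh2, by -0.94 (SE 0.15), and for Mtf2, by -0.52 (SE 0.16), both called as interaction terms by edgeR.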

How the results depend on the processing

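Of 170 member values, DESeq2 kept 166 on the same side of the threshold, made 3 calls and lost 1. It turned the sign of 0 values called in either fit and of 4 called in neither. ERCC scaling turned the sign of 31 that were called in either fit and of 28 called in neither, made 17 calls and lost 13. The settings other than ERCC scaling, DESeq2 among them, turned the sign of 0 called values and, counted over settings, of 24 uncalled ones. The cause of the shifts below was not tested.

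Counts of members called moved as follows. Each percent in brackets is the share of all genes called under that setting. At GV (2 in the report) they were 1 with no low-count filter (11%) and 1 without GV control 1 (20.6%). They were 3 with ERCC scaling (20.6%, Ezh2 added) and with replicates 1 to 8 (23.1%, Kdm6a added). At GV3h (3) they were 5 with only the groups compared (54.6%) and 5 with replicates 1 to 8 (38.2%). With these and the replicate block they were 6 (38.2%), and without GV control 1 they were 5 (39.7%). They were 2 with ERCC scaling (28.2%, Ezh1 lost) and 4 without oocyte 15 (41.3%, Kdm6b added). In MII eggs (4) they were 2 with ERCC scaling (41.9%), 2 with replicates 1 to 8 (36.1%) and 2 with the block (35.1%). They were 6 with DESeq2 (44%) and without GV control 1 (42%), with Suz12 and Kdm6a added, and 5 without oocyte 15 (43.3%, Suz12 added). With only the groups compared they were again 4 (30.6%), where Ezh1 and Kdm6b were lost and Suz12 and Kdm6a added. For control GV3h against GV (0) they were 2 with only the groups compared (15.1%). They were 1 in each of replicates 1 to 8 (4.1%), the block (3.64%), without GV control 1 (3.14%) and without oocyte 15 (3.92%). For Dis3 cKO GV3h against GV (5) they were 2 with ERCC scaling (37%), 3 with no filter (8.99%) and 3 with replicates 1 to 8 (12.7%). For the difference of effects at GV3h (0) they were 1 without GV control 1 (3.17%) and 1 without oocyte 15 (2.98%). For that at MII (2) they were 1 with replicates 1 to 8 (11%), 1 with the block (10.2%) and 4 without oocyte 15 (15.5%). They were 3 with ERCC scaling (30.1%, all higher, neither of the 2 among them) and 3 without GV control 1 (12.4%, Jarid2 added). In adult RiboMinus libraries (1) they were 8 with ERCC scaling (44.6% of all genes called) and 0 summed per title tag (0 of 15334). At p20 they were 1 for Exosc10 cKO (0) with only the groups compared (8.31%) and 3 for dcKO against Dis3 cKO (7) with ERCC scaling (36.9%). For dcKO against Exosc10 cKO (7) they were 4 with ERCC scaling (31.6%) and 4 summed per tag (35.5%). For age (2) they were 10 with ERCC scaling (86.1% of all genes) and 0 summed per tag (1.78%), near the background. For the effect of age on Dis3 loss (0) they were 1 with DESeq2 (11.4%). In p20 libraries the replicate block made 2 calls and lost 0 among 50 member values; these 2, Eed and Mtf2 in dcKO against Dis3 cKO, were not called on counts summed per tag.

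Signs of values called in either fit that turned with ERCC scaling. Control MII against GV: Ezh1 -1.59, Ezh2 -0.48, Eed -1.31, Suz12 -1.40, Aebp2 -0.99, Mtf2 -0.78, Phf19 -1.40, Kdm6a -1.09 and Kdm6b -1.03. Dis3 cKO MII against GV: Ezh1 -0.86, Ezh2 -0.88, Eed -1.16, Suz12 -1.07, Jarid2 -0.82, Aebp2 -0.64, Mtf2 -0.62, Phf19 -0.27, Kdm6a -0.54 and Kdm6b -0.37. Dis3 cKO GV3h against GV: Ezh2 0.17 and Eed 0.10. Control adult against p20: Eed -1.20, Suz12 -1.52, Phf19 -1.54, Kdm6a -1.30 and Kdm6b -1.56. Adult Dis3 loss: Eed -0.54 and Mtf2 -0.45. The rest were Kdm6b in MII Dis3 cKO (0.075), Mtf2 in the MII minus GV effect (0.16) and Kdm6a in dcKO against Dis3 cKO (0.0033).

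The p20 covered length difference became -0.091 over peaks at or above the median signal and 0.81 for the number of peaks. With 1 list left out it ran from 0.40 to 0.51, the adult one from 0.66 to 1.25, and that between control ages (-0.52, exact permutation p = 0.4) from -0.89 to -0.30. With the replicate block the exact permutation p was 0.25 for both knockouts, the smallest that 3 pairs allow, and 0.5 for age. Member starts with a peak within 5 kb were 8 of 108 pairs, where 29.0% to 52.6% of protein-coding starts had one. Over peaks at or above the median signal they were 0, where 14.7% to 22.2% of protein-coding starts had one. Phf19 had as few as 29 counts in a library, which limits its precision.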
